A study of Mus musculus with 6 samples.

Results

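The 40 genes described here act in mitosis, the stage of the cell cycle in which copied chromosomes are condensed, attached to a spindle and pulled apart before the cell divides. They were chosen by gene symbol, from a written list of mitotic kinases, cyclins, checkpoint and kinetochore proteins, motors, cytokinesis factors and condensin subunits. The choice applied no threshold to a measured value, but the list was drawn up with earlier results of these data known. They make up 40 of the 17951 genes listed in at least 1 library. All 40 were listed in all 6 libraries.

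The study asked how dopamine, written DA in the labels, changes the transcriptome of mouse macrophages responding to Pam3CSK4, a bacterial-type lipopeptide made by synthesis and recognised by Toll-like receptor 2. Wild-type C57BL/6 marrow, from mice aged 8 weeks, was grown into bone marrow-derived macrophages (BMDMs) with conditioned medium of L929 cells, which secrete the growth factor M-CSF. One group of 3 libraries came from BMDMs given Pam3CSK4, and the other group of 3 from BMDMs given DA for 2 h ahead of 6 h with the same ligand. Both groups therefore carried the Toll-like receptor stimulus, and neither resting cells nor cells with DA but no ligand were part of the comparison.

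The labels do not say whether the libraries of a group came from separate mice or cultures, so the spread behind each p-value is that among these libraries and may be technical. Each library held between 21337932 and 21518425 expected counts. Macrophage markers were abundant: Csf1r, the M-CSF receptor, stood at 2548 ± 49 CPM (counts scaled to 1e+06 per library; SD, n = 3) with Pam3CSK4 and at 2133 ± 36.2 CPM with DA. Among the macrophage markers, Adgre1, Csf1r, Itgam, Lyz2, Mertk and Mrc1 were lower and Fcgr1 was higher with DA, and Cd68 and Cd14 were not called. Stromal, neutrophil and megakaryocyte markers were also present and are given with the results. Pax5 of B cells, Cd3g of T cells, Cpa3, Fcer1a and Cma1 of mast cells and the globins Hbb-bs and Hbb-bt were at 0 in every library.

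In dividing cells the mitotic genes form a wave of expression that rises late in the cycle. Cyclin-dependent kinase 1, bound to cyclins, starts mitosis, and the anaphase-promoting complex (APC) ends it by marking cyclins and other proteins for destruction. Most of these genes are controlled through a promoter element called the cell cycle genes homology region (CHR), which is bound by complexes built on the MuvB core, and through CCAAT boxes, which are bound by the factor NF-Y. In resting cells the MuvB core joins pocket proteins in the DREAM complex, which represses the genes, and in cycling cells it joins B-Myb and FoxM1, which activate them. Bone marrow cells grown in M-CSF proliferate as they become macrophages.

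With DA, 18 of the 40 genes were lower, 2 were higher and 20 did not pass the test (edgeR's quasi-likelihood test, Benjamini-Hochberg adjusted p under 0.05 over the 12390 genes tested). Among all genes tested, 31.8% were lower, 32.6% were higher and 64.4% were called in either direction. The members' share of lower calls was thus 45% against 31.8%, and their share of higher calls 5% against 32.6%. With upper-quartile scaling the same shares were 30% against 25.3% lower, and all genes tested then split into 5055 higher and 3138 lower, where the TMM scaling gave 4043 and 3938. The median log2 fold change (DA minus Pam3CSK4) was -0.24 over the 40 genes, with quartiles of -0.42 and -0.12, and 0.02 over all genes tested. Upper-quartile scaling moved both medians up together, to -0.12 and 0.135. A fall in the level of these transcripts in bulk RNA can come from fewer dividing cells or from less RNA in each, and these cannot be told apart here.

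Most of the differences were modest. Mki67 was the only member that changed by at least 2-fold, where 7.48% of all genes tested were lower by that much. For 20 members the libraries of the groups did not overlap in CPM, 18 of them lower and 2 higher, while 68.7% of all genes tested did not overlap and 34% of all genes tested did so in the lower direction. Among the 9632 tested genes with a mean count in the members' range, 30.6% were lower and 34.2% higher, with a median log2 fold change of 0.04. In 16 alternative treatments of the counts, which include leaving out each library, 10 of the 18 lower calls held throughout and neither of the higher calls did.

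**Figure D1:**
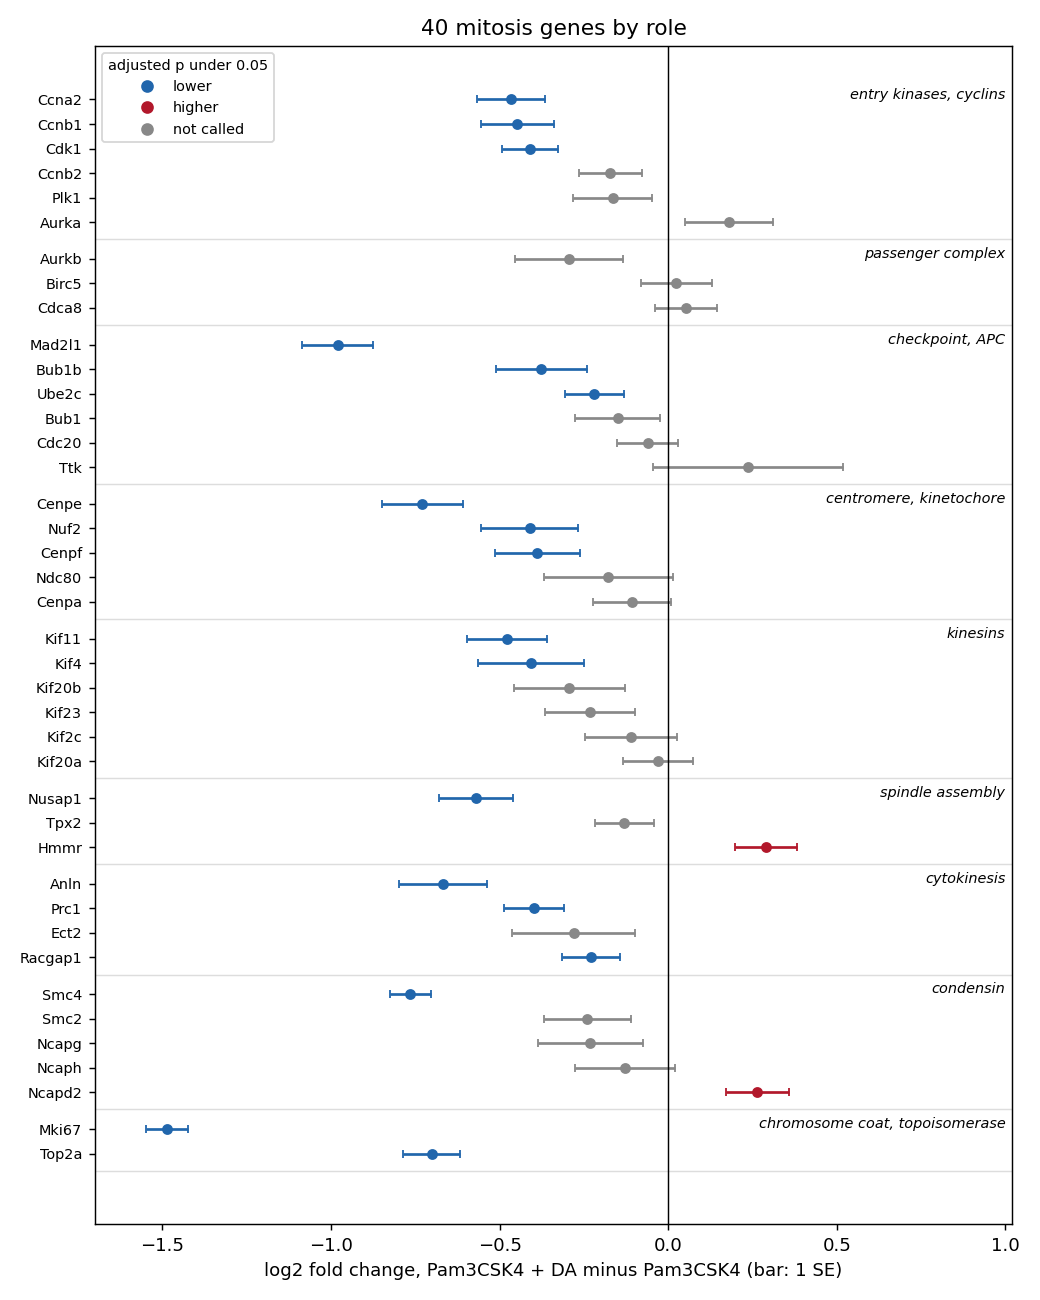
Log2 fold change of each of the 40 mitosis genes (DA minus Pam3CSK4; point, with 1 SE of edgeR's estimate as the bar), grouped by role and sorted within each role, with colours for the call at an adjusted p under 0.05. The 18 genes called lower lie in 8 of the 9 roles, and Mki67 at -1.49 lies apart from the rest.

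Most promoters of these genes held sequence elements that the selection by symbol did not use. Both elements were named above as controls of such genes, so their frequency here is not an independent finding. RefSeq promoter windows (GRCm38.p6), running from 250 bases before to 50 bases after the annotated start, were at hand for 35 of the 40 genes, the others being Aurkb, Ccna2, Kif20a, Smc4 and Tpx2. A CHR match, written TTTGAA or TTCGAA on either strand, was found in 28 of the 35 windows (80%), against 21.7% of the 27025 genes with a window and 16.7% of the 9913 that were also tested. A CCAAT match on either strand was found in 26 windows (74.3%), against 41.1% and 42.8%. Both motifs occurred in 24 windows (68.6%), against 9.65% and 8.21%. In the one-window-per-gene set, 27 of the 39 CHR matches began within 50 bases of the start, and 47 of the 61 CCAAT matches began in the 150 bases before it. In all 24 members with both motifs, the first CCAAT match lay upstream of the last CHR match. Several matches in a window favour that order, and its share over all genes was not counted. In Bub1b, Smc2, Ect2 and Ccnb2 a CHR match also lay upstream of every CCAAT match. In 1 member, Cdca8, a match of each kind overlapped. These are matches of letters, not measured binding. Positions refer to the RefSeq start, which lay within 100 bases of the GENCODE gene start for 29 of the 35 members. It lay further off for Cenpa, Ncapd2, Cdca8, Kif2c, Mad2l1 and Kif4, so their windows may miss the start in use.

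**Figure D2:**
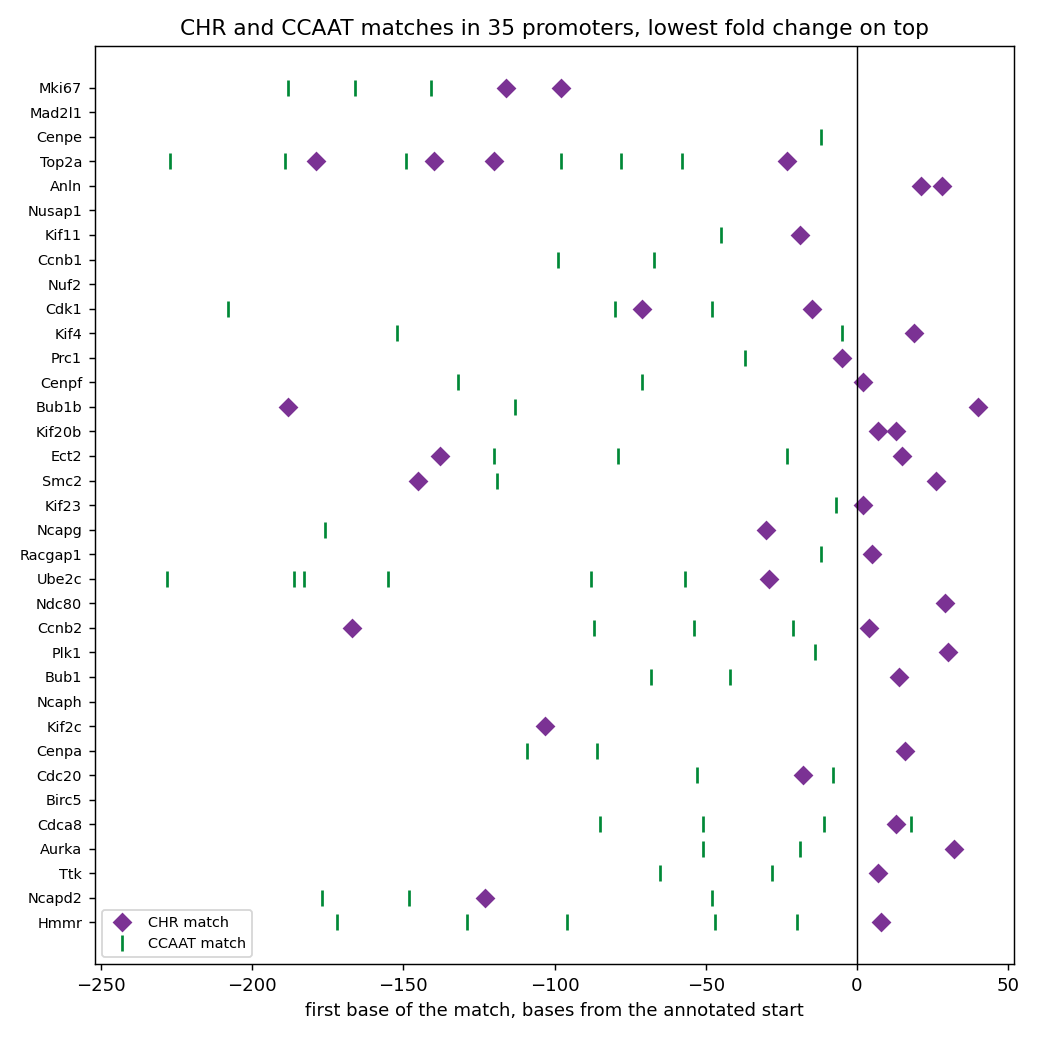
Position of each CHR match (diamonds) and CCAAT match (bars) in the 35 promoter windows, in bases from the annotated start, with the member of lowest fold change on top. CHR matches cluster near the start and CCAAT matches before it, and Mad2l1, Nusap1, Nuf2, Ncaph and Birc5 hold neither.

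CHR matches occurred in members of every call. Of the 16 genes called lower that had a window, 11 held a CHR match, as did 15 of the 17 that were not called and both genes called higher. The median log2 fold change was -0.23 over the 28 members with a CHR match and -0.45 over the 7 without. The promoters of 6 members with a CHR match are printed below to show which of these matches they hold and where, in genes that differed in their response to DA: 5 fell, by log2 fold changes from -1.49 to -0.41, and 1 rose. Capitals mark CHR and CCAAT matches, the latter written ATTGG when on the other strand. The windows are chr7:135716330-135716629 on the minus strand for Mki67, chr11:99024140-99024439 on the minus strand for Top2a, chr9:22389157-22389456 on the minus strand for Anln, chr19:37376132-37376431 on the plus strand for Kif11, chr10:69352863-69353162 on the minus strand for Cdk1 and chr11:40733388-40733687 on the minus strand for Hmmr. Each is written 5′ to 3′ along its gene.
Mki67: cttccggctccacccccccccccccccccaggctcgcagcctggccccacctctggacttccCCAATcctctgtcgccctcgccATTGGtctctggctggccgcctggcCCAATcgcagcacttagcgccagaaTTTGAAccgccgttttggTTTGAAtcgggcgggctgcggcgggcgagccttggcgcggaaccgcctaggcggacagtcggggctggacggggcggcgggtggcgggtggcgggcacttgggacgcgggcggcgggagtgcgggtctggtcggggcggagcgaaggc
Top2a: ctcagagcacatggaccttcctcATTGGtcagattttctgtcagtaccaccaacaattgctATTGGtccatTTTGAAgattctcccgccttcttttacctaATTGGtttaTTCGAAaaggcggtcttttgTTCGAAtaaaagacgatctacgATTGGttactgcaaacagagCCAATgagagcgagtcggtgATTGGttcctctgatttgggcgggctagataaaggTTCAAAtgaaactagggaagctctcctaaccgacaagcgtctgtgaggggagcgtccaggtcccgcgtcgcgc
Anln: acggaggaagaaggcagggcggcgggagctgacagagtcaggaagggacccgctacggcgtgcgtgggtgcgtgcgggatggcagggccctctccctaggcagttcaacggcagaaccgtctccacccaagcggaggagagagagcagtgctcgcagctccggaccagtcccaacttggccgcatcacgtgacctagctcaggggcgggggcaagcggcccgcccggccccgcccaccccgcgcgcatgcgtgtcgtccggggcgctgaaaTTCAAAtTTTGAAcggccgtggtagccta
Kif11: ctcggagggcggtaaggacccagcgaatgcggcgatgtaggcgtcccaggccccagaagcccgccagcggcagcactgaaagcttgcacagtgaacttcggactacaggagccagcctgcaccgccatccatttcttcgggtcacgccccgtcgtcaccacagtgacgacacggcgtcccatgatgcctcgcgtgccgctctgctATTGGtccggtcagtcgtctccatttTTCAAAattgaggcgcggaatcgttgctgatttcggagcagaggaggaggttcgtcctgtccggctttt
Cdk1: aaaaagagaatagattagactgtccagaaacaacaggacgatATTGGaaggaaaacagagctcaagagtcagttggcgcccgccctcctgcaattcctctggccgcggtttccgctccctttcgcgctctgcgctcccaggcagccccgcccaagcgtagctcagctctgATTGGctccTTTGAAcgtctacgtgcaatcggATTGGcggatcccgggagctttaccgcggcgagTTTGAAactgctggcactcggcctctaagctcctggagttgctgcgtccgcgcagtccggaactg
Hmmr: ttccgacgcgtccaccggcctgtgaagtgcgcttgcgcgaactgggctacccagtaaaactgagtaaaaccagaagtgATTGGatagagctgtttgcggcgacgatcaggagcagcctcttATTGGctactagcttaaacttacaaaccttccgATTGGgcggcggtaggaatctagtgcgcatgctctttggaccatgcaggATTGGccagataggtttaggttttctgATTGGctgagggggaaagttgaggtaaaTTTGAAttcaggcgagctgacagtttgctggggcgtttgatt
The Mki67 window held 3 CCAAT matches followed by CHR matches that began 116 and 98 bases before the start. The Top2a window held 4 CHR and 6 CCAAT matches, while Anln held 2 CHR matches after the start and no CCAAT match. Hmmr, the gene of this set that was higher with DA, held 1 CHR match, 8 bases after the start, and 5 CCAAT matches before it. Cdk1, which was lower, held 2 CHR and 3 CCAAT matches.

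Both genes for proteins that coat and untangle mitotic chromosomes were lower, against 31.8% of all genes tested. Mki67 had the largest change of the 40. Mki67 encodes Ki-67, which coats condensed chromosomes and is the common marker of proliferating cells. It lies on chromosome 7 (GENCODE annotation of GRCm38, bases 135689784 to 135716361, minus strand). Its expected counts were 3247, 3109 and 3104 in the 3 Pam3CSK4 libraries and 1270, 1243 and 1090 in the 3 DA libraries. Every DA library was far below every Pam3CSK4 library. The mean fell from 152 ± 3.33 CPM to 54.4 ± 4.28 CPM (SD, n = 3 each), 2.80-fold lower, with a log2 fold change of -1.49 (SE 0.063; edgeR adjusted p = 7.35e-11). Top2a encodes topoisomerase II alpha, which untangles sister DNA molecules. It gave 722, 662 and 591 counts with Pam3CSK4 and 458, 445 and 393 with DA, with no overlap. Its level fell 1.63-fold, from 31.8 ± 2.94 to 19.6 ± 1.52 CPM (log2 fold change -0.70, SE 0.084, edgeR adjusted p = 4.73e-06).

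Mki67 weighed heavily in the sum over the 40 genes. Together they took 10409 to 11232 counts per library with Pam3CSK4 and 7285 to 8265 with DA, which is 0.0507% ± 0.00197 and 0.0363% ± 0.00242 of all counts (SD, n = 3). Mki67 alone made up 29.1% ± 0.630 of the members' counts with Pam3CSK4 and 15.4% ± 0.752 with DA. Of the difference of 3056 counts between the group means, 1952 counts (63.9%) came from Mki67. Without it, the sums were 7305 to 7985 and 6195 to 7022 counts, and the groups still did not overlap. On the FPKM scale, which divides by transcript length, the sum was 150 ± 5.01 with Pam3CSK4 and 126 ± 10.4 with DA. The FPKM sum without Mki67 ran from 130.3 to 139.63 with Pam3CSK4 and from 111.11 to 131.02 with DA, and there the groups overlapped. Summed over all genes, FPKM was itself higher with DA, at 545526 to 566700 against 505865 to 532271 with Pam3CSK4. What part this had in the overlap was not tested. Without Mki67, 17 of 39 members were lower, with a median log2 fold change of -0.23.

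**Figure D3:**
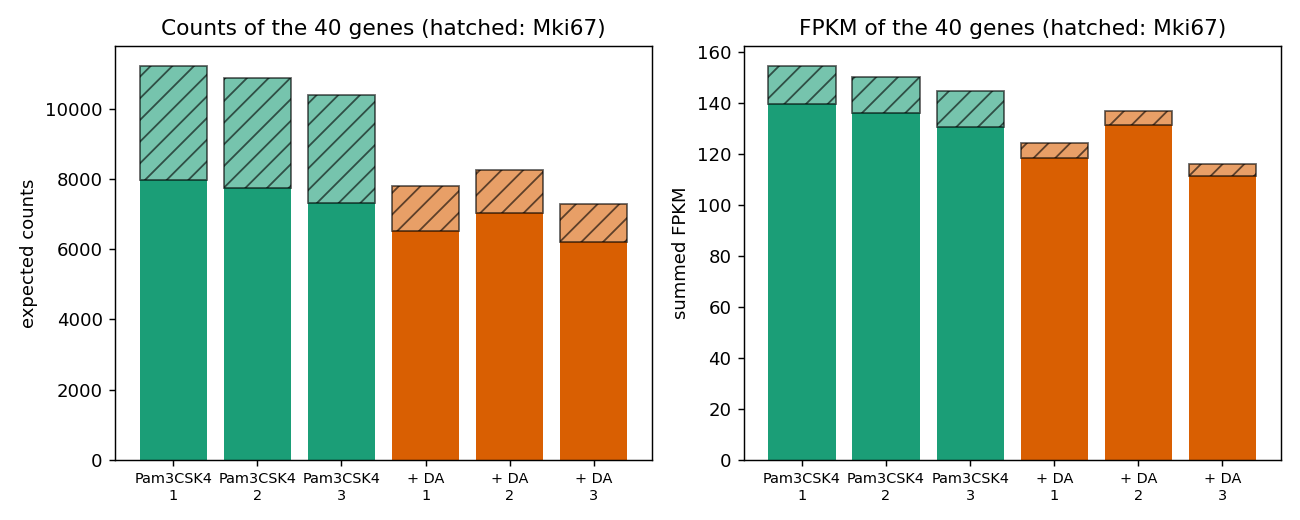
Sum of the 40 mitosis genes in each library, in expected counts (left) and in FPKM (right), with the share of Mki67 hatched. Mki67 makes up 29.1% of the members' counts with Pam3CSK4 and 15.4% with DA on average, and a far smaller part of the FPKM sum.

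The kinases and cyclins that drive entry into mitosis split, with 3 of 6 lower and 3 not called (median log2 fold change -0.29). This lower share was 50%, against 31.8% of all genes tested. The lower genes were Cdk1 and its cyclin partners Ccna2 and Ccnb1. Cdk1, the central kinase of mitosis, gave 258, 260 and 269 counts with Pam3CSK4 and 202, 222 and 209 with DA. These groups did not overlap, and the mean fell from 12.7 ± 0.386 to 9.55 ± 0.409 CPM (log2 fold change -0.41, SE 0.083, edgeR adjusted p = 6.39e-04). Ccna2, cyclin A2, gave 221, 185 and 205 counts against 149, 170 and 153, and fell by 0.47 on the log2 scale (SE 0.101, edgeR adjusted p = 1.05e-03). Ccnb1, cyclin B1, gave 276, 258 and 210 counts against 179, 212 and 191. In CPM these came to 12.0 ± 1.56 and 8.78 ± 0.709 without overlap, and Ccnb1 fell by 0.45 (SE 0.108, edgeR adjusted p = 2.32e-03), a call that was lost in the test on log2(FPKM + 1) without a filter, at -0.29.

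The other mitotic cyclin and the kinases of the centrosome did not pass. Ccnb2, cyclin B2, had a log2 fold change of -0.17 (SE 0.093). Plk1, Polo-like kinase 1, which acts from entry to cytokinesis, gave 165, 180 and 161 counts with Pam3CSK4 and 162, 186 and 134 with DA. The lowest and the highest of these 6 counts both came from DA libraries, and the means were 8.15 ± 0.448 and 7.27 ± 1.14 CPM (log2 fold change -0.16, SE 0.118, edgeR adjusted p = 0.237). Aurka, Aurora kinase A, which matures the centrosomes, had a log2 fold change of 0.18 (SE 0.130). Without DA replicate 2 Ccnb2 passed at -0.26, and without DA replicate 3 Aurka passed at 0.325.

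None of the 3 members of the chromosomal passenger complex, which corrects faulty attachments and later guides cytokinesis, passed edgeR's quasi-likelihood test, and 0 of 3 did so at an unadjusted p under 0.05 or by DESeq2's Wald test. Aurkb, Aurora kinase B and the enzyme of the complex, gave 81, 91 and 82 counts with Pam3CSK4 and 56, 89 and 76 with DA. DA replicate 2 lay within the Pam3CSK4 libraries and the other DA libraries below them, and the means were 4.09 ± 0.256 and 3.33 ± 0.738 CPM (log2 fold change -0.29, SE 0.161, edgeR adjusted p = 0.124). Without DA replicate 2 the log2 fold change was -0.455 and passed. Birc5, survivin, gave 191, 166 and 177 counts against 203, 210 and 167. Its groups overlapped fully, at 8.60 ± 0.596 and 8.75 ± 1.01 CPM (log2 fold change 0.02, SE 0.107, edgeR adjusted p = 0.852). Cdca8, borealin, had a log2 fold change of 0.05 (SE 0.092).

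In the spindle checkpoint and the APC arm, 3 of 6 genes were lower and 3 were not called (median -0.18). This lower share was 50%, against 31.8% of all genes tested. The checkpoint holds back the APC until every chromosome is attached. Mad2l1 encodes MAD2, the protein that binds and blocks the APC activator CDC20, and lies on chromosome 6 (66535390 to 66547220, plus strand). It gave 244, 250 and 251 counts with Pam3CSK4 and 125, 157 and 121 with DA. The Pam3CSK4 libraries were nearly alike and all DA libraries lay far below them. The mean fell 1.97-fold, from 12.0 ± 0.258 to 6.08 ± 0.856 CPM (log2 fold change -0.98, SE 0.105, edgeR adjusted p = 1.57e-06), the next largest fall after Mki67. Its target Cdc20 gave 218, 212 and 208 counts against 206, 241 and 206, with the highest count in DA replicate 2. Cdc20 stood at 10.3 ± 0.179 and 9.85 ± 0.856 CPM (log2 fold change -0.06, SE 0.091, edgeR adjusted p = 0.580).

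Smaller falls were called for Bub1b, which encodes the checkpoint kinase relative BUBR1 (log2 fold change -0.38, SE 0.135, edgeR adjusted p = 0.0249), and for Ube2c, the ubiquitin-conjugating enzyme of the APC (log2 fold change -0.22, SE 0.088, edgeR adjusted p = 0.0417). The groups overlapped in CPM for Ube2c. Leaving out single libraries ended both calls. That of Bub1b was lost without Pam3CSK4 replicate 2 (-0.23), DA replicate 1 (-0.36) or DA replicate 3 (-0.35), and that of Ube2c without Pam3CSK4 replicate 1 (-0.18) or 2 (-0.22) or DA replicate 1 (-0.20) or 3 (-0.15). Bub1 and Ttk, the checkpoint kinases BUB1 and MPS1, were not called, at -0.15 and 0.24. Ttk had the lowest count of any member in any library, 13, and its SE of 0.28 was the widest of the 40.

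Among the 5 centromere and kinetochore genes 3 were lower (60%, against 31.8% of all genes tested), with a median of -0.39. Cenpe, a kinesin of the kinetochore that carries chromosomes to the spindle equator, gave 230, 232 and 186 counts with Pam3CSK4 and 160, 124 and 133 with DA. Its groups did not overlap, and its mean fell 1.66-fold, from 10.4 ± 1.18 to 6.30 ± 0.872 CPM (log2 fold change -0.73, SE 0.12, edgeR adjusted p = 9.98e-05). Cenpf, a large kinetochore protein, and Nuf2, a subunit of the NDC80 complex that grips microtubules, were lower at log2 fold changes of -0.39 and -0.41 (edgeR adjusted p = 0.0149 and 0.0228). Cenpf lost its call without Pam3CSK4 replicate 2 (-0.285) or DA replicate 3 (-0.35), and Nuf2 without Pam3CSK4 replicate 2 (-0.31) or DA replicate 2 (-0.39). Ndc80, the partner of Nuf2 in that complex, had a log2 fold change of -0.18 (SE 0.191) and was not called. Cenpa, the histone H3 variant that marks centromeres, gave 201, 209 and 200 counts against 199, 239 and 167, so that the DA libraries lay on both sides of the others (9.83 ± 0.208 and 9.13 ± 1.58 CPM, log2 fold change -0.11, SE 0.115, edgeR adjusted p = 0.437).

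Of the 6 kinesin motors 2 were lower (33.3%, against 31.8% of all genes tested), with a median of -0.26. Kif11, the motor that pushes spindle poles apart, gave 126, 121 and 108 counts with Pam3CSK4 and 88, 100 and 84 with DA. The groups did not overlap, at 5.72 ± 0.406 and 4.10 ± 0.353 CPM (log2 fold change -0.48, SE 0.12, edgeR adjusted p = 3.04e-03), and the call was lost on log2(FPKM + 0.1), at -0.355. Kif4, a chromosome-bound kinesin, was lower at -0.41 (SE 0.157, edgeR adjusted p = 0.0343). Its call was lost without Pam3CSK4 replicate 1 (-0.36) or 2 (-0.33) or DA replicate 2 (-0.33) or 3 (-0.43). Kif2c, Kif20b and Kif23 were not called, with log2 fold changes from -0.29 to -0.11, and Kif23 passed at -0.39 without DA replicate 2. Kif20a, a motor of the midzone and midbody, gave 223, 205 and 210 counts against 243, 236 and 188. Its highest and lowest counts both came from DA libraries (10.3 ± 0.427 and 10.1 ± 1.33 CPM, log2 fold change -0.03, SE 0.104, edgeR adjusted p = 0.816).

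The 3 spindle assembly factors went in different directions, with 1 lower and 1 higher (33.3% each). All genes tested had 31.8% lower and 32.6% higher. Nusap1, which stabilises and bundles microtubules near chromosomes, gave 128, 127 and 136 counts with Pam3CSK4 and 92, 99 and 90 with DA. It fell without overlap from 6.30 ± 0.289 to 4.24 ± 0.189 CPM (log2 fold change -0.57, SE 0.11, edgeR adjusted p = 4.07e-04). Hmmr, which encodes the hyaluronan-mediated motility receptor, a spindle protein also described at the cell surface, gave 258, 218 and 229 counts against 298, 336 and 286. Every DA library was above every Pam3CSK4 library. Hmmr rose 1.22-fold, from 11.4 ± 0.968 to 13.9 ± 1.10 CPM (log2 fold change 0.29, SE 0.093, edgeR adjusted p = 0.0137), and lost its call without Pam3CSK4 replicate 2 (0.23) or DA replicate 2 (0.22) and by DESeq2's Wald test (0.27). Tpx2, the activator of Aurora kinase A on the spindle, gave 406, 399 and 339 counts against 377, 397 and 342. Its groups overlapped, at 18.4 ± 1.64 and 16.8 ± 1.18 CPM (log2 fold change -0.13, SE 0.086, edgeR adjusted p = 0.205).

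**Figure D4:**
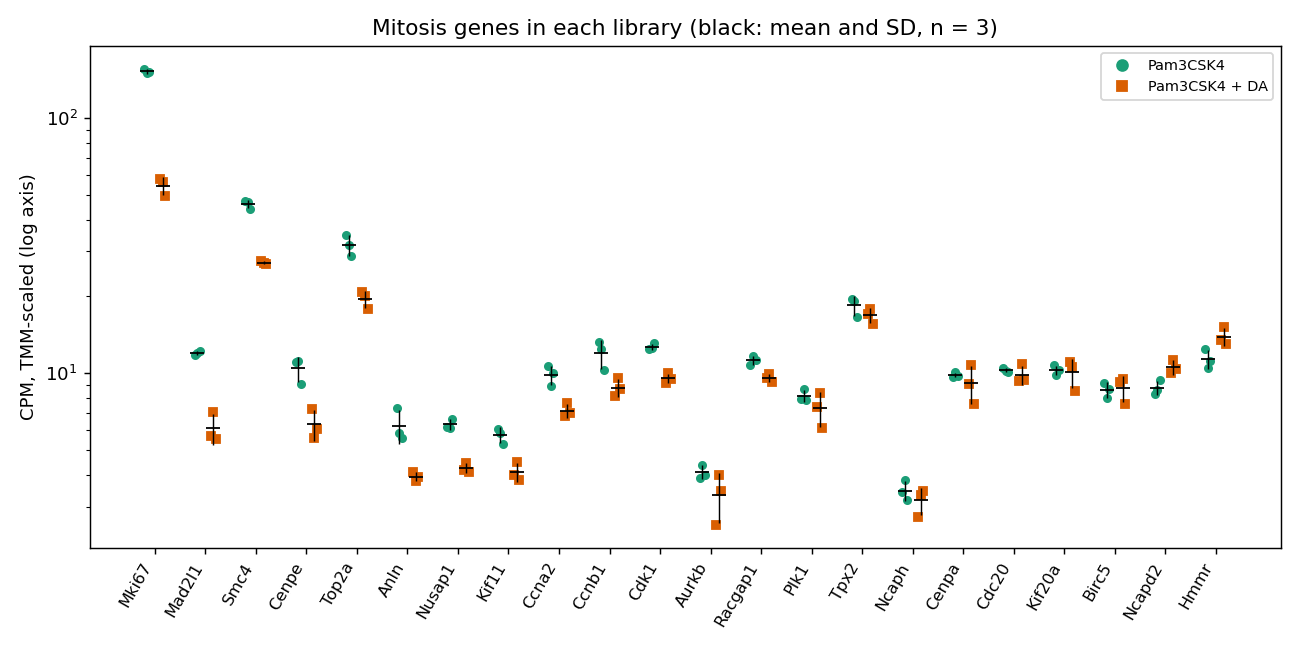
Level of 22 of the mitosis genes in each library, in TMM-scaled CPM on a log axis, with Pam3CSK4 libraries as circles, DA libraries as squares, and mean and SD in black (n = 3). Mki67, Mad2l1, Smc4, Cenpe and Top2a separate with DA lower, whereas Cdc20, Kif20a and Birc5 overlap and Hmmr and Ncapd2 lie higher with DA.

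Cytokinesis, the splitting of the cell, had 3 of 4 genes lower (75%, against 31.8% of all genes tested), with a median of -0.34. Anln, anillin, the scaffold of the contractile ring, gave 152, 121 and 114 counts with Pam3CSK4 and 90, 84 and 86 with DA. The groups did not overlap, and it fell 1.59-fold, from 6.23 ± 0.942 to 3.93 ± 0.155 CPM (log2 fold change -0.67, SE 0.131, edgeR adjusted p = 4.65e-04). Prc1, which bundles the microtubules of the midzone, was lower at -0.40 (SE 0.09, edgeR adjusted p = 1.47e-03). Racgap1, a subunit of centralspindlin, gave 224, 243 and 230 counts against 210, 221 and 204. In CPM it was 11.2 ± 0.465 and 9.58 ± 0.337 without overlap (log2 fold change -0.23, SE 0.085, edgeR adjusted p = 0.0298). The Racgap1 call was lost without Pam3CSK4 replicate 2 (-0.20) or 3 (-0.23) or DA replicate 1 (-0.225) or 3 (-0.20). Ect2, which centralspindlin recruits to the midzone, had a log2 fold change of -0.28 (SE 0.183) and was not called.

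Condensin, the ring complex that compacts chromosomes, was the role in which subunits of a shared complex were called in opposite directions. Its 5 genes gave 1 lower call, 1 higher call and 3 that did not pass. That was 20% each way, against 31.8% lower and 32.6% higher among all genes tested. Smc4, an ATPase subunit common to condensin I and condensin II, lies on chromosome 3 (69004738 to 69034623, plus strand) and gave 982, 973 and 906 counts with Pam3CSK4 and 604, 602 and 591 with DA. The DA libraries were nearly alike and all far below the others. Smc4 fell 1.70-fold, from 46.1 ± 1.65 to 27.1 ± 0.287 CPM (log2 fold change -0.76, SE 0.061, edgeR adjusted p = 6.76e-08). Its ATPase partner Smc2 had a log2 fold change of -0.24 (SE 0.129) and was not called, but passed at -0.36 without Pam3CSK4 replicate 3.

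Of the 3 subunits that belong to condensin I alone, 1 was higher and the others were not called, with log2 fold changes below 0. Ncapd2 gave 173, 179 and 193 counts with Pam3CSK4 and 220, 251 and 228 with DA, with no overlap. It rose 1.20-fold, from 8.78 ± 0.567 to 10.5 ± 0.670 CPM (log2 fold change 0.26, SE 0.093, edgeR adjusted p = 0.0227). The Ncapd2 call was lost without Pam3CSK4 replicate 1 (0.22) or 2 (0.25) or DA replicate 2 (0.205). It was also lost by DESeq2's Wald test (0.25) and without a filter on counts. Ncaph, the kleisin that closes the ring, gave 71, 79 and 65 counts against 60, 74 and 76, and its groups overlapped at 3.46 ± 0.319 and 3.17 ± 0.390 CPM (log2 fold change -0.13, SE 0.148, edgeR adjusted p = 0.468). Ncapg was not called, at -0.23 (SE 0.156), although its libraries did not overlap in CPM.

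Levels can be set against each other between genes only per length. In FPKM with Pam3CSK4 the 40 genes ran from 0.267 for Ttk to 19.1 for Ube2c, with a median of 2.41, and 6 were under 1 FPKM. The 3 genes at 10 FPKM or more were Ube2c at 19.1 ± 1.26, Mki67 at 14.4 ± 0.387 and Smc4 at 10.8 ± 0.477 (SD, n = 3). With DA these levels were 17.4 ± 1.94, 5.46 ± 0.464 and 6.74 ± 0.108 FPKM. Mki67 was thus between Ube2c and Smc4 with Pam3CSK4 and below both with DA. Across the 40 genes, Spearman's rank correlation of the log2 fold change was -0.04 with the FPKM level and -0.39 with transcript length. Across the 12390 genes tested it was -0.20 and -0.27. With genomic span, the length of a gene on the chromosome, it was -0.24 across the 40 genes and -0.38 across 12366 tested genes. These are descriptions across genes measured in the same 6 libraries, and genes are not independent replicates.

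The order of the libraries within a group was shared by many members. DA replicate 2 gave the highest DA value for 27 of the 40 genes, replicate 1 for 10 and replicate 3 for 3. Pam3CSK4 replicate 3 gave the lowest Pam3CSK4 value for 18 genes, and replicates 1 and 2 for 11 each. Without DA replicate 2 the counts were 19 lower and 0 higher, without DA replicate 3 they were 13 and 3, and without Pam3CSK4 replicate 2 they were 12 and 0. The 10 genes whose lower call held under every alternative in which they were tested were Cdk1, Ccna2, Mad2l1, Cenpe, Nusap1, Prc1, Anln, Smc4, Mki67 and Top2a.

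Marker sets of other cells moved in both directions. The summed level of 10 markers of myeloid progenitors, a type of dividing precursor cell, was 11.9 to 13.9 CPM with Pam3CSK4. With DA it was 8.68 to 11.3 CPM, without overlap. Of the 10 markers, 2 stayed under 10 counts in every library. Of the 7 that were tested, Kit and Myb were lower (log2 fold changes -1.23 and -1.66) and Gata2 was higher (0.87). The 7 stromal markers summed to 961 to 1014 CPM with Pam3CSK4 and 825 to 901 CPM with DA, without overlap, and Col1a2, Pdgfra, Pdgfrb and Cxcl12 were lower.

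The 8 neutrophil markers summed to 217 to 270 CPM with Pam3CSK4 and 579 to 602 CPM with DA. S100a8 made up most of that difference, at 63.5 ± 12.6 and 406 ± 14.6 CPM (SD, n = 3). Of the 6 tested, S100a8 and Cxcr2 were higher, Camp and Ngp were lower and the median log2 fold change was -0.03. The 5 megakaryocyte markers summed to 239 to 294 CPM and 360 to 427 CPM, without overlap, most of it from Pf4, and Pf4 and Ppbp were higher. The summed T and NK cell markers overlapped between groups, at 19.1 to 20.9 and 15.97 to 19.4 CPM, and Cd8a and Klrb1c were lower among 3 tested. The dendritic and endothelial sums, all under 10 CPM, overlapped as well, with Xcr1 higher and Ccr9 and Kdr lower. The 10 macrophage markers summed to 28439 to 28522 CPM with Pam3CSK4 and 21929 to 22266 CPM with DA. Whether these markers came from such cells or from the macrophages was not tested. Any part of such cells in the mitotic genes was not tested either.

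Genes that govern the mitotic programme were called in both directions. Of 42 such regulators, 13 were higher (31%), 9 were lower (21.4%) and 20 were not called, with a median log2 fold change of 0.12. For all genes tested the shares were 32.6% higher and 31.8% lower. Among 13 genes listed as activators, 4 were higher and 4 lower (30.8% each). That list includes subunits of the MuvB core, which also belongs to the repressive DREAM complex. E2f2, an E2F activator, gave 24, 29 and 24 counts with Pam3CSK4 and 113, 100 and 116 with DA, every DA library being far above. It rose 3.99-fold, from 1.24 ± 0.135 to 4.97 ± 0.412 CPM (log2 fold change 2.00, SE 0.161, edgeR adjusted p = 7.70e-08). Lin37, a MuvB core subunit, rose 1.79-fold, whereas Lin9, another subunit of that core, fell 1.57-fold and E2f3 fell 1.46-fold. Foxm1 and Mybl2, the partners of MuvB in cycling cells, were singled out after their values were seen, and neither was called (log2 fold changes -0.08, SE 0.109, and 0.30, SE 0.16).

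Among 10 repressors and pocket proteins, 2 were higher and 3 lower (20% and 30%). Rb1, the retinoblastoma gene, fell 1.73-fold and its relative Rbl2, the pocket protein p130 of DREAM, fell 1.75-fold (edgeR adjusted p = 1.39e-05 and 8.68e-06). E2f6, a repressive E2F, rose 1.90-fold. E2f4, the main E2F of DREAM, was called higher at 0.14 (SE 0.055). It lost that call without any 1 of the 3 Pam3CSK4 libraries (0.14 each time) or DA replicate 1 (0.11). The call was also lost by DESeq2's Wald test (0.13) and without a filter on counts (0.11).

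Inhibitors of cyclin-dependent kinases had 3 of 7 higher and 1 lower (42.9% and 14.3%). Cdkn2b, which encodes p15, an inhibitor of the G1 kinases CDK4 and CDK6, gave 63, 40 and 42 counts with Pam3CSK4 and 271, 262 and 329 with DA. Every DA library was far above every other. It rose 5.56-fold, from 2.33 ± 0.605 to 13.0 ± 1.70 CPM (edgeR adjusted p = 4.71e-09). Cdkn2d, p19, rose 1.46-fold and Cdkn1b, p27, fell 1.34-fold. Of the 12 genes of the switch that turns Cdk1 on and off, 4 were higher and 1 lower (33.3% and 8.33%). The activating phosphatase genes went opposite ways, with Cdc25b 1.5-fold higher and Cdc25a 1.54-fold lower, and Arpp19, an inhibitor of the phosphatase that opposes Cdk1, rose 1.34-fold.

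Of 60 other mitosis genes tested, 11 were lower (18.3%), 6 were higher (10%) and 43 were not called, with a median of -0.04. For all genes tested the shares were 31.8% lower and 32.6% higher. Whether they differ as a list from the 40 members was not tested. Trip13, an ATPase that remodels MAD2, gave 377, 353 and 380 counts with Pam3CSK4 and 125, 133 and 94 with DA. It fell 3.36-fold, from 17.9 ± 0.799 to 5.31 ± 0.912 CPM (log2 fold change -1.75, SE 0.11, edgeR adjusted p = 4.92e-09), without overlap. Ckap2l, a spindle protein, fell 1.75-fold. Ncapg2, a subunit of condensin II, rose 1.74-fold, and Tubb4b, a beta-tubulin whose sequence is close to that of other tubulins and whose counts are therefore less certain, rose 1.85-fold. Of 15 listed APC genes, which include the enzyme Ube2s beside core subunits, 2 were higher and 5 lower (median 0.01). These are 13.3% and 33.3%, against 32.6% and 31.8% of all genes tested. Anapc16 rose 1.70-fold and Anapc7 1.16-fold, while Cdc27 fell 1.43-fold and Ube2s, the enzyme that extends ubiquitin chains on the APC, fell 1.33-fold.

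Cohesin, the ring that holds sister chromatids together and also folds chromatin outside mitosis, had 8 of 10 genes lower and 0 higher by edgeR's quasi-likelihood test (median -0.60). The lower share was 80%, against 31.8% of all genes tested. The count of higher genes was also 0 at an unadjusted p under 0.05 and by DESeq2's Wald test, and became 1 with upper-quartile scaling or without Pam3CSK4 replicate 1. Stag1, a cohesin subunit, gave 1222, 1098 and 942 counts with Pam3CSK4 and 304, 254 and 285 with DA. It fell 4.13-fold, from 52.5 ± 6.41 to 12.7 ± 1.21 CPM (log2 fold change -2.04, SE 0.0972, edgeR adjusted p = 2.50e-10). Its paralogue Stag2 fell 2.07-fold, from 94.7 ± 10.8 to 45.8 ± 3.87 CPM. Stag1 and Stag2 fell in all 3 DA libraries, with no overlap.

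Genes of DNA replication, which precedes mitosis, had 16 of 35 tested higher and 4 lower (45.7% and 11.4%, median 0.18). For all genes tested these shares were 32.6% and 31.8%. Pcna, the sliding clamp of the replication fork, rose 1.64-fold, from 123 ± 0.852 to 202 ± 3.94 CPM (edgeR adjusted p = 1.51e-08), and Cdt1, a licensing factor, rose 1.70-fold. Pola1, the catalytic subunit of the primase polymerase, fell 1.95-fold, and Tyms, thymidylate synthase, fell 1.35-fold. Promoter windows of the replication genes held a CHR match in 21.4% of 28 and a CCAAT match in 67.9%, and those of the other mitosis genes in 66% of 50 for either motif.

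**Figure D5:**
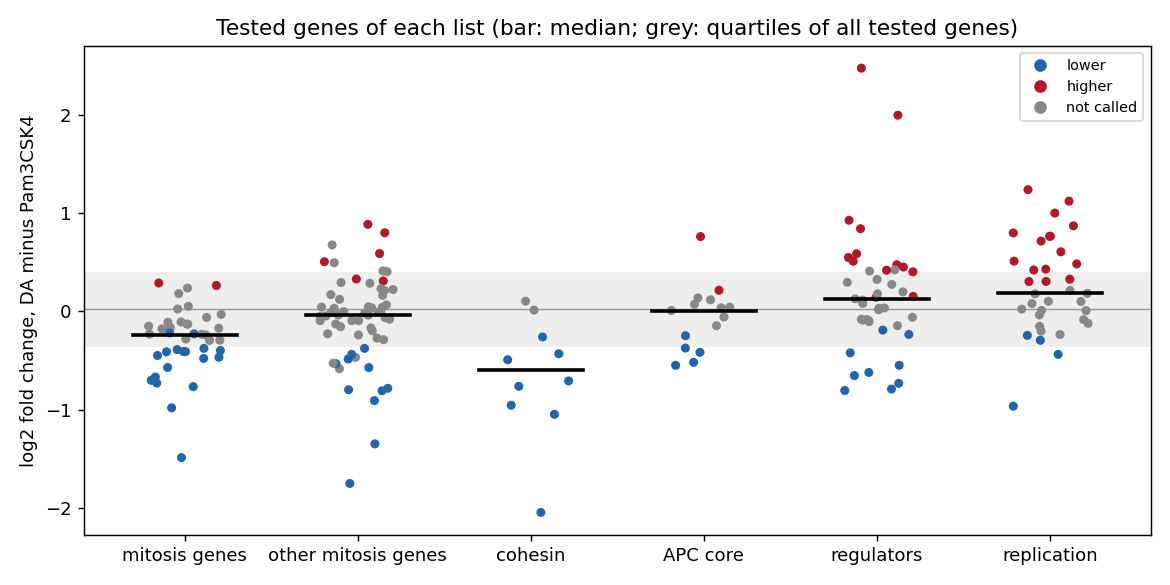
Log2 fold change (DA minus Pam3CSK4) of every tested gene in the mitosis list and in 5 related lists, with the median of each list as a bar and the quartiles of all tested genes in grey. The median lies at -0.24 for the 40 mitosis genes, at -0.60 for cohesin and at 0.18 for replication.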

How the data were processed

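RNA of 6 libraries was sequenced on a BGISEQ-500, per the labels' protocols. Per the file headers, the authors deposited expected counts, which are estimates of the reads of each gene without normalization, and FPKM, scaled by transcript length and library size. Bowtie2 2.2.5 and the build GRCm38.p5 are named in the submitters' processing notes; the quantifier and the use of strand were not given in the sources used here, so overlapping genes on opposite strands and near-identical copies may share reads. The files list genes from an FPKM of 0.01, and an absent gene was set to 0.

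Expected counts were rounded, and edgeR 4.0.16 (R 4.3.3) removed 5561 low genes with filterByExpr, scaled 12390 by TMM and compared the groups by its quasi-likelihood test without a block, with Benjamini-Hochberg adjustment over all 12390 and a threshold of 0.05. The SE is the log2 fold change divided by the square root of the F statistic. CPM values use the TMM-scaled library size. The common biological coefficient of variation was 0.0562, and intervals were not drawn from counts. Alternatives were DESeq2 1.42.0, limma 3.58.1 on the log2 scale of the deposited FPKM with pseudocounts of 1 or 0.1 and a minimum of 1 FPKM in 3 libraries, other scalings and filters, a replicate block, and each library left out. The fit was checked on simulated counts.

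The members, gene lists and motifs were chosen with earlier results of these data known. Values per library are given for Mki67, Top2a, Cdk1, Ccnb1, Plk1 and Aurkb, for the member with the largest and the smallest log2 fold change by size in each role, and for members called against the majority, 22 in all; from the other lists, at most 2 genes per direction with the smallest adjusted p are named, and from the cell markers those that were called or at 0, except 1 that is not reported here. Printed promoters are those of these members with a CHR match, at most 6, taken by size of change, an order chosen after their values were seen. Groups follow the titles, since the source labels of the DA libraries vary in how they number the ligand. Library pairs within a group differed beyond sampling noise, so each was counted as 1 sample.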

Additional observations from a re-analysis of the deposited data

How the results depend on the processing

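Over 16 alternatives, 621 values of single members gave 560 with the same direction and side of the threshold, 56 that lost their call, 5 that gained one and 0 reversed, and of 445 values of the 28 other named genes 437 were the same and 8 lost their call. The cause of the changes below was not tested, except that fewer members are tested with the FPKM minimum (32) and with a mean of at least 50 counts (37). Members called higher (2) were 0 by DESeq2's Wald test, 1 without a count filter and 0 to 3 with 1 library left out. Members called lower (18) were 11 by limma on log2(FPKM + 1), 10 on log2(FPKM + 0.1) and 11 without the FPKM filter. They were 12 by upper-quartile scaling or DESeq2, and 12 to 19 with 1 library left out. Lower shares of members and of all genes tested were 34.4% and 28% on log2(FPKM + 1) and 31.2% and 27.9% on log2(FPKM + 0.1). Without the FPKM filter they were 27.5% and 17.2%, and by DESeq2 30% and 25.9%. With 1 library left out they ran from 30% to 47.5% and from 28.6% to 30.4%. Bub1b, Ube2c, Cenpf, Nuf2, Kif4 and Racgap1 lost their calls under upper-quartile scaling and also by DESeq2's Wald test. Other mitosis genes called higher (6) were 3 by DESeq2 and 3 to 6 with 1 library left out, and those called lower (11) were 6 on either FPKM scale with the filter, 7 at a mean of at least 50 counts and 8 to 14 with 1 library left out. Replication genes called higher (16) were 10 by DESeq2 and 12 to 15 with 1 left out, and those called lower (4) were 2 by upper-quartile scaling, DESeq2 or the mean of at least 50 counts, 1 in each limma test and 2 to 4 with 1 left out. Listed APC genes called higher (2) were 5 by upper-quartile scaling and on either FPKM scale with the filter, 1 by DESeq2 and 2 to 3 with 1 left out. Cohesin genes called higher (0) were 1 by upper-quartile scaling and 0 to 1 with 1 left out, and the 8 lower calls stayed at 8. Library sizes computed without the 50 genes of highest count, an alternative chosen after seeing the data, gave 18 lower and 2 higher members.

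The labels give both groups replicate numbers 1 to 3, but the correlations of same-numbered deviations were 0.102, -0.025 and 0.035, so the numbers were not taken as pairs. A fit with the replicate number as a block gave 18 lower and 2 higher members, and 4111 lower and 4223 higher genes overall. Single members with low counts, such as Ttk, Ndc80 and Ect2, had the widest errors. Promoter shares in the shorter window of 100 bases before the start were 74.3% for CHR and 62.9% for CCAAT. In that window all genes with a promoter had 9.87% and 26.3%, and those also tested 6.79% and 29.2%.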
